A study of Mus musculus with 3 samples.

Results

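Gene deserts are long stretches of a chromosome that hold no protein-coding gene. Here they were the 10 kb bins of the deposited 5-hydroxymethylcytosine (5hmC) table that lay on an autosome and at least 500 kb from every protein-coding RefSeq gene of the mouse build GRCm38. The rule was met by 19900 of 264399 bins, or 8.31% of the 239486 autosomal bins, and 5hmC played no part in it. These bins covered 199 Mb and fell into 244 deserts, each a run of bins inside 1 gap between neighbouring protein-coding genes. A desert held from 1 to 353 bins, with a median of 49, and 184 deserts held at least 20 bins. In all, 19894 member bins had a value in each of the 3 libraries, and no filter on low values was applied.

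Genomic DNA of mouse cerebellum was compared in 3 libraries, with 1 library per group: a DDD-seq library of normal (control) tissue, a DDD-seq library made after chronic sleep deprivation (the CSD library), and an ACE-seq library. The treatment label of the ACE-seq library is also control, although its title does not say so, and it is called the ACE-seq control here. Strain, age, sex and the number of animals behind each library are not given in the sources used here, and no transgene or mutant allele is named. In DDD-seq, 5hmC is protected by an attached glucose and the other cytosines are deaminated by the enzyme SsdAcat, so that cytosines still read as cytosine count as 5hmC. The protocol text in the labels is the same for the ACE-seq library. Each value is the deposited fraction of a bin, multiplied by 100 and called the 5hmC level in percent. No read depth comes with it, so the counting error of a bin is unknown. Since each group had 1 library, no p-value is given, and every difference is between libraries. Errors are standard errors (SE) over bins or deserts and do not measure variation between animals. A DNA level gives no check of the labelled tissue against marker RNAs.

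5hmC arises when TET enzymes oxidise 5-methylcytosine. The mark is abundant in neurons, where it is known for its enrichment over the bodies of expressed genes and at distal enhancers. Deserts lack coding exons, but they can hold long noncoding RNA (lncRNA) genes, microRNA genes, pseudogenes and distant regulatory elements of developmental genes.

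The desert bins held 1210 noncoding RefSeq entries, among them 454 pseudogenes, 294 lncRNA genes and 21 microRNA genes. The promoters below show the sequence context of lncRNA genes that lay in bins with high and low 5hmC. Each runs 5′ to 3′ on the strand of its gene, from RefSeq on GRCm38.p6, with every CpG (the motif CG, which reads the same on both strands) in capitals because CpG is the main site of methylation and 5hmC. The first, of C230029F24Rik (chr1:49244366-49244665, plus strand), lies in one of the 10 highest desert bins. The second, of 1700023F02Rik (chr10:66200442-66200741, minus strand), and the third, of Gm32423 (chr8:101590747-101591046, plus strand), belong to lncRNA genes with high bodies. The last, of Gm13912 (chr2:108291270-108291569, minus strand), belongs to a gene with a low body.
C230029F24Rik: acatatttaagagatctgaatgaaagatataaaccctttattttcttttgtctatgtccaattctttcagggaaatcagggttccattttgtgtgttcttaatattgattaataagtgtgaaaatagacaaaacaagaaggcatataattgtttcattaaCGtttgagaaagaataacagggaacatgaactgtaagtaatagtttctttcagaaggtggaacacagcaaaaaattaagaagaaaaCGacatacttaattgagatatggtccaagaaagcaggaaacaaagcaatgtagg
1700023F02Rik: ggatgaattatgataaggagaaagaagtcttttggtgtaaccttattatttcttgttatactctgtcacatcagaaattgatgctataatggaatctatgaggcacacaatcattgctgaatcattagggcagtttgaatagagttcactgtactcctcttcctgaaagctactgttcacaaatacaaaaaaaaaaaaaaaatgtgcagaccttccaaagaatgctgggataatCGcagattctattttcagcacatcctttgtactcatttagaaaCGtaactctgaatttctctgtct
Gm32423: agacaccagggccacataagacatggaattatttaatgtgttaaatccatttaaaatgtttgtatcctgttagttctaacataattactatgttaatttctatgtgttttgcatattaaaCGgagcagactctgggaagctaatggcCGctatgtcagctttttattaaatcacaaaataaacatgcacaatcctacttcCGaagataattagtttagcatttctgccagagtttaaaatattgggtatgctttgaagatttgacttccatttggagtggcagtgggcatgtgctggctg
Gm13912: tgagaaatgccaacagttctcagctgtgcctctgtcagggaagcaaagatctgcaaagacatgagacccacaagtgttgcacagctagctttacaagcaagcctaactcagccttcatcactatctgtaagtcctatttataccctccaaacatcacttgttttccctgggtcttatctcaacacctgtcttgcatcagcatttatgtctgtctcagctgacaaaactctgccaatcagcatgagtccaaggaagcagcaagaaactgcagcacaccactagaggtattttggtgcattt

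All 4 promoters were poor in CpG, with 2, 2, 3 and 0 sites in 300 bases. They are examples, and CpG number did not separate high from low genes. Of other lncRNA genes with high bodies, Gm42185 had 0 sites and 4930407I19Rik 1. Among those with low bodies, Gm41317 had 3, Gm39640 1 and Gm30996 0. The 10 kb bin at the start of C230029F24Rik had 6.95% 5hmC in the DDD-seq control, 6.41% in the CSD library and 5.37% in the ACE-seq control. The start of 1700023F02Rik had 2.78%, 2.29% and 1.92% in the same order, that of Gm32423 2.83%, 3.36% and 3.60%, and that of Gm13912 0.726%, 0.547% and 0.593%. The Gm13912 bin was below the other 3 in each library. The genes were picked by their 5hmC levels in these libraries, so this order follows largely from the choice. Promoter sequences were matched for 198 of the 294 desert lncRNA genes (223 promoters). They had a median of 2 CpG sites, against 4 in 11079 lncRNA promoters elsewhere on the autosomes and 14 in 20041 protein-coding promoters. At least 1 CG was present in 81.6% of desert lncRNA promoters and in 94.7% of all autosomal promoters of this length. Shares with 5 or more CpG sites were 15.7% of desert lncRNA promoters, 45.0% of other lncRNA promoters and 72.6% of protein-coding promoters. Among the desert promoters, those with 5 or more CpG sites lay in bins with mean levels of 1.53%, 1.46% and 1.41%, and those with none in bins with 1.48%, 1.69% and 1.61%. The order of these sets differed between the libraries.

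Mature microRNAs of the deserts are shown with the seed (bases 2 to 8), which pairs with target mRNAs, in capitals, from RefSeq on GRCm38.p6. The first 3 come from genes in high bins, miR-135a-5p from a gene near the lncRNA gene Rmst, and the last 3 from the Mir344 cluster, which lay in a low desert.
miR-6370: gCAGGAACagcaaaggggaag
miR-125b-5p: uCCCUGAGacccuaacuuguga
miR-1952: uCUCCACCcuccuucug
miR-135a-5p: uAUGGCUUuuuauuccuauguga
miR-344d-3p: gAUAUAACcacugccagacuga
miR-344e-3p: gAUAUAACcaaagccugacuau
miR-344b-3p: cAUUUAGCcaaagccugacugu

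The seed of miR-344d-3p is also that of miR-344e-3p, whereas miR-344b-3p has another. The former was the 3′ arm seed of 4 genes of the cluster (Mir344d-1, Mir344d-2, Mir344d-3 and Mir344e). The genes Mir344e, Mir344h-1 and Mir344h-2 share a 5′ arm seed. The 5hmC levels of these genes are given with the other noncoding genes.

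Not every bin that met the rule was empty of genes that make protein. RefSeq does not class the V segments of antigen receptors as protein-coding genes, and 3 of the 244 deserts (439 bins) were antigen receptor loci. The desert between Adam6a and Zfp386 (chr12:114050001-115540000, 149 bins) held 70 V segments of the immunoglobulin heavy chain locus Igh. Another, on chromosome 6 (chr6:68040001-70260000, 222 bins), held 70 V segments of the kappa light chain locus Igk. The remaining one, between Gm36448 and Dad1 (chr14:53050001-53730000, 68 bins), held 64 V segments of the T cell receptor alpha locus Tcra. V segments or V pseudogenes overlapped 65.1%, 51.4% and 82.4% of the bins of these loci. Values for all deserts are therefore also given without them. In all, 2563 desert bins (12.9%) overlapped some noncoding gene and 1580 (7.94%) an lncRNA gene.

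Desert bins had low 5hmC. The DDD-seq control had a mean of 1.43% over them, the CSD library 1.45% and the ACE-seq control 1.40% (SE over deserts 0.0175, 0.0173 and 0.0169). Medians were 1.32%, 1.33% and 1.29%. In the DDD-seq control the 5th and 95th percentiles of bins were 0.431% and 2.78%. Genic bins, which overlap a protein-coding gene, had means of 1.76%, 1.76% and 1.71%, and the other intergenic bins 1.38%, 1.39% and 1.33%. Deserts thus lay 0.328, 0.307 and 0.315 percentage points below genic bins, and 0.0570, 0.0635 and 0.0686 points above the rest of the intergenic genome. Both differences were larger than 3 SE in each library. With medians in place of means both differences were smaller. Genic medians were 1.49%, 1.48% and 1.45%, and the second difference was 0.0248, 0.0330 and 0.0399 points. The second was also smaller with bins at least 1000 kb from a gene (0.0394, 0.0345 and 0.0415, with SE of 0.0279, 0.0277 and 0.0281).

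Without the antigen receptor loci the desert means were 1.44%, 1.46% and 1.41%. The DDD-seq control listed 235 desert bins at a level of 0 (1.18%), the CSD library 110 (0.553%) and the ACE-seq control 240 (1.21%). The same shares were 0.876%, 0.549% and 0.975% in other intergenic bins and 0.354%, 0.250% and 0.393% in genic bins. Desert bins were at 0 in all 3 libraries in 22 cases, and 13 of these lay in 1 stretch of chromosome 2 between Lrrc4c, encoding a synaptic adhesion protein, and Iftap (chr2:100470001-100770000). Of the 25 bins listed in that stretch, 19, 19 and 15 were at 0, while single bins reached 25% in the CSD library and 20% in the ACE-seq control.

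5hmC did not fall steadily with distance from genes. In the DDD-seq control the mean level was 1.76% in genic bins, dropped to 1.32% in intergenic bins less than 50 kb from a gene, and was 1.39% at 50 to 100 kb, 1.42% at 100 to 250 kb and 1.45% at 250 to 500 kb. Inside the deserts it was 1.44% at 500 to 750 kb (8761 bins), 1.43% at 750 to 1000 kb (4644 bins) and 1.42% beyond 1000 kb (6495 bins). The CSD library had 1.47%, 1.45% and 1.43% in these 3 desert classes, and the ACE-seq control 1.42%, 1.40% and 1.38%. The lowest intergenic class was the one nearest to genes in each library. The farthest desert bin lay 2264 kb from a gene.

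**Figure D1:**
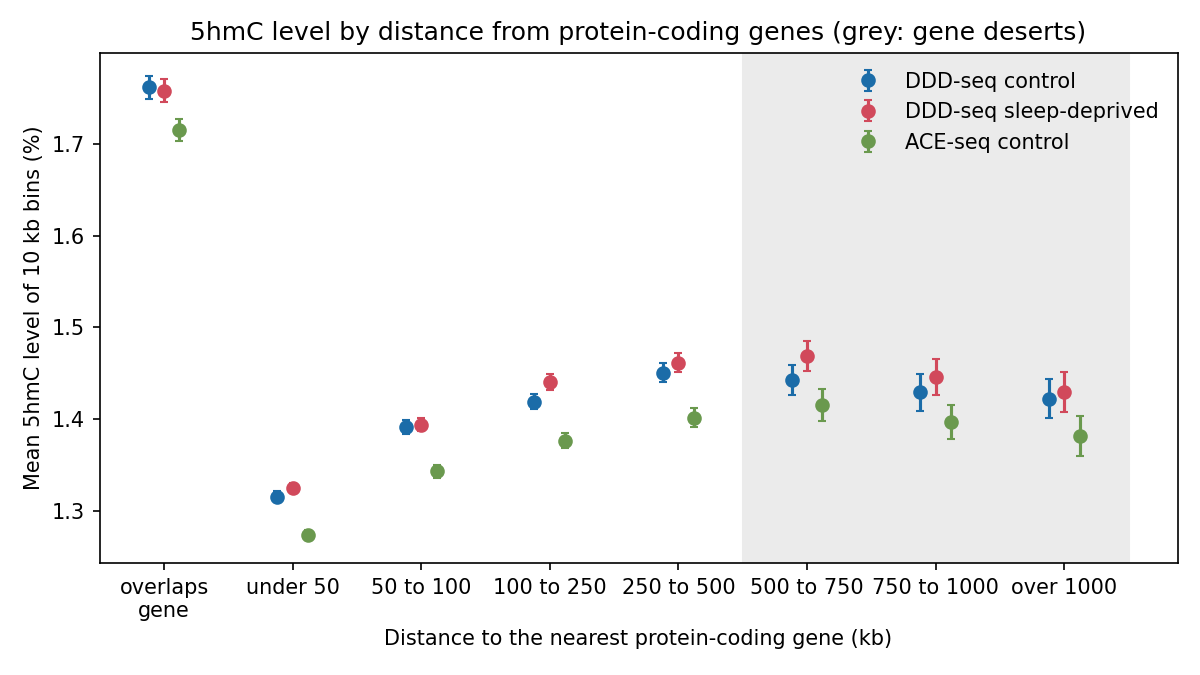
Mean 5hmC level in percent (vertical axis, which does not start at 0) of autosomal 10 kb bins by distance to the nearest protein-coding gene in kb (horizontal axis). Points are library means, and bars are the SE with the bins of a 1 Mb window taken as 1 cluster. Grey shading marks the desert classes, which lie between 1.38% and 1.47% against 1.27% to 1.33% for intergenic bins under 50 kb from a gene.

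Bins beside genes were lower in gaps without a desert than in gaps that hold one. Bins under 50 kb from a gene had means of 1.44%, 1.47% and 1.40% where the gap held a desert (2430 bins), and 1.31%, 1.32% and 1.27% in all other gaps (43915 bins). No level farther from genes was computed for those other gaps alone, so a dip beside genes within them was not tested. Within the 242 gaps that hold a desert between 2 genes, the level varied little up to 1000 kb. The mean over gaps was 1.44%, 1.47% and 1.40% at 0 to 50 kb from the nearest gene and 1.44%, 1.46% and 1.41% at 500 to 750 kb. Beyond 1000 kb, which 70 gaps reached, it was 1.43%, 1.41% and 1.36%.

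Over the 184 deserts of at least 20 bins, the core of a gap (at least 500 kb from a gene) differed from its edges (under 100 kb) by -0.0243 ± 0.0191 points in the DDD-seq control, -0.00568 ± 0.0196 in the CSD library and 0.0117 ± 0.0198 in the ACE-seq control (SE over deserts). Each was smaller than 2 SE. For bins at least 1000 kb from a gene the differences from the edges were -0.0861 ± 0.0380, -0.0495 ± 0.0403 and -0.0383 ± 0.0389 points (SE over deserts). The DDD-seq control thus passed 2 SE there. The core was above the edge in all 3 libraries in 54 deserts and below it in all 3 in 52. At the threshold itself, the 200 member bins nearest to it (500.004 to 503.723 kb) had means of 1.48%, 1.51% and 1.42%, and the 200 bins just short of it (495.629 to 499.991 kb) 1.42%, 1.42% and 1.34%. No SE was computed for these sets. Over whole gaps no such step was seen, with means of 1.43%, 1.46% and 1.41% at 400 to 500 kb. At 500 to 750 kb they were 1.44%, 1.46% and 1.41%.

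Deserts were unevenly spread over the autosomes. They took up 13.2% of the bins of chromosome 14 and 12.2% of chromosome 3, but 2.53% of chromosome 19 and 3.85% of chromosome 9. Their level was below the genic level on all 19 autosomes in each library. It was above that of other intergenic bins on 14 autosomes in the DDD-seq control, and on 16 in each of the other libraries. On 13 autosomes the difference was positive in all 3 libraries, and on chromosomes 13 and 15 it was negative in all 3. In the DDD-seq control it ranged from -0.0574 points on chromosome 13 to 0.171 points on chromosome 10. The range was -0.0520 to 0.187 points in the CSD library and -0.0721 to 0.153 points in the ACE-seq control.

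**Figure D2:**
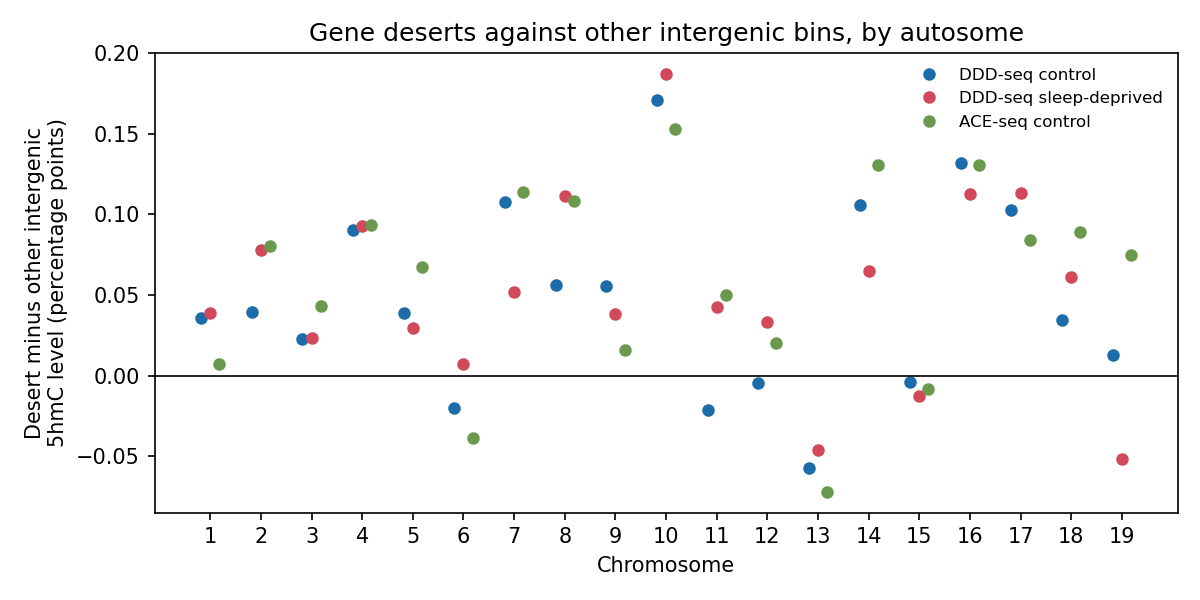
Difference between the mean 5hmC level of desert bins and of other intergenic bins in percentage points (vertical axis) on each of the 19 autosomes (horizontal axis), with 1 point per library. Most points lie above the line at 0, and those of chromosomes 13 and 15 lie below it in all 3 libraries.

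Deserts differed more from each other than between libraries: over the 184 of at least 20 bins, the SD of the level was 0.247 points in the DDD-seq control, and that of the difference from it was 0.102 points in the CSD library and 0.131 in the ACE-seq control. Their mean level ran from 0.944% to 2.22% in the DDD-seq control (median 1.41%), from 0.996% to 2.31% in the CSD library (median 1.42%) and from 0.938% to 2.38% in the ACE-seq control (median 1.38%). Spearman's rho over these deserts was 0.880 between the DDD-seq control and the CSD library and 0.855 between the DDD-seq control and the ACE-seq control. It is a description over regions that share a library, local sequence and any bias of mapping.

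Deserts of at least 20 bins were ranked by the mean of the 3 libraries. The first in this order lay between Tlr4, encoding the receptor for bacterial lipopolysaccharide, and Brinp1, a neural gene of the BRINP family (chr4:67350001-68260000, 91 bins). It had 2.22% ± 0.193, 2.26% ± 0.189 and 2.14% ± 0.160 (SE over bins), while the edges of its gap had 1.61%, 1.67% and 1.47%. Its place rests on 1 bin: without its highest bin, a choice made after seeing the data, it had 2.08%, 2.11% and 2.02%, below the next desert in each library. The Brinp1 body had 5.86%, 5.74% and 5.86%. Next came the desert between Stpg2 and Pdha2, which encodes a testis form of a pyruvate dehydrogenase subunit (chr3:140220001-140710000, 49 bins), with 2.13%, 2.31% and 2.04%. The desert between Ankrd7 and Kcnd2, a gene for an A-type potassium channel (chr6:19380001-20710000, 133 bins), had 2.12%, 2.12% and 1.97%, and the Kcnd2 body 5.36%, 5.26% and 5.14%. The Brinp1 and Kcnd2 bodies lay well above the deserts beside them, whereas the Stpg2 body, with 1.63%, 1.65% and 1.69%, lay below its desert.

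The other 7 of the 10 highest deserts were Btbd3 to Sptlc3, Marcks to Rfpl4b, Nectin3 to Gm52257, Adamts5 to N6amt1, Dnah5 to Ctnnd2, Arpp21 to Pdcd6ip and Eno1b to Dtwd2. Among their bounding genes, Marcks encodes a substrate of protein kinase C, Nectin3 a cell adhesion protein, Sptlc3 a subunit of the enzyme that starts sphingolipid synthesis, and Ctnnd2 delta-catenin of neuronal junctions. Their means lay between 1.78% and 2.23% over the 3 libraries. Of the 10 highest deserts, 6 held no bin that overlaps an lncRNA gene. Over all 244 deserts, 138 held both bins in lncRNA genes and bins outside them. The count of 6 is therefore not read as a trait of high deserts.

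By the mean of the 3 libraries the 2 lowest deserts were antigen receptor loci, although Hnf4g to Zfhx4 was lowest in the DDD-seq control and BC030500 to Aadat in the CSD library (0.996%). Igh had 0.964% ± 0.039, 1.01% ± 0.035 and 0.947% ± 0.036, and Igk 0.954% ± 0.034, 1.06% ± 0.030 and 0.938% ± 0.033. Both encode antibody chains and are rearranged in B cells. Bins with a V segment had 0.946% in Igh and 0.910% in Igk in the DDD-seq control, and bins without one 0.997% and 1.001%. The order was the other way in the CSD library, with 1.03% and 1.08% against 0.968% and 1.03%. In the ACE-seq control it differed by locus, with 0.936% and 0.970% against 0.967% and 0.904%. The low level was thus not limited to the segments. V segments form families of related sequences, and reads from the most similar copies may be divided between them or left out. The part of mapping in these levels was not tested.

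The third locus, Tcra, had means of 1.28%, 1.06% and 2.38%, but medians of 0.916%, 1.01% and 0.933%. One bin (chr14:53230001-53240000) was listed at 100% in the ACE-seq control and at 0 in the others, and another (chr14:53150001-53160000) at 20% in the DDD-seq control and at 0 in the others. Without its highest bin in each library the Tcra mean was 0.997%, 1.03% and 0.923%, close to Igh and Igk. Over the 3 loci the medians were 0.906%, 1.01% and 0.880%.

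The remaining deserts among the 10 lowest were no receptor loci. The longest of them was between Cntnap5b, of the contactin-associated family, and the cadherin gene Cdh20 (chr1:101000001-104260000, 326 bins), the fourth longest desert, with 1.09% ± 0.033, 1.13% ± 0.026 and 1.06% ± 0.028. The gap edges had 1.30%, 1.35% and 1.15%, and the bodies of Cntnap5b 1.27%, 1.19% and 1.28% and of Cdh20 2.09%, 2.18% and 1.76%.

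Other low deserts were Hnf4g to Zfhx4 (0.944%, 1.10% and 1.04%), Vrk2 to Ccdc85a, Gm51483 to Ndn, Ppp6c to Lrp1b and BC030500 to Aadat. Their levels lay between 0.944% and 1.26% over the 3 libraries. Hnf4g encodes a nuclear receptor of the gut, and Ndn the imprinted protein necdin.

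Long deserts were neither high nor low as a set. The longest, between the protocadherin genes Pcdh20 and Pcdh9 (chr14:88980001-92510000, 353 bins), had 1.48%, 1.54% and 1.45%. The Pcdh9 body had 4.42%, 4.57% and 4.35%, and the Pcdh20 body 1.35%, 1.23% and 1.60% over 2 bins. The second, between Celf4, for an RNA-binding protein of neurons, and Pik3c3 (chr18:26260001-29760000, 350 bins), had 1.64%, 1.63% and 1.57%. The third, between Olfm4 and Pcdh17 (chr14:80530001-83940000, 341 bins), had 1.55%, 1.56% and 1.54%. The fifth, between the teneurin gene Tenm3 and Aga (chr8:50030001-53010000, 298 bins), had 1.36%, 1.45% and 1.35%. Of the 5 longest, 4 lay within 1 SD over deserts (0.247, 0.246 and 0.236 points) of the median desert in each library, and the exception was the low desert between Cntnap5b and Cdh20.

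Genes that bound deserts were more often high than autosomal genes at large, although most were not high. Of 272 bounding genes with at least 5 bins, 12.9% had a body of 3% or more in all 3 libraries. The share was 4.37% of all 6387 autosomal protein-coding genes with at least 5 bins, and the sets were not matched for length. Their median was 1.70%, 1.72% and 1.69%, against 1.53%, 1.53% and 1.49%. Over the 184 deserts, the desert level had a Spearman's rho of 0.332, 0.276 and 0.244 with the bodies of its bounding genes, and 0.470, 0.502 and 0.473 with the edges of its own gap. These points share chromosomal neighbourhood and library.

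**Figure D3:**
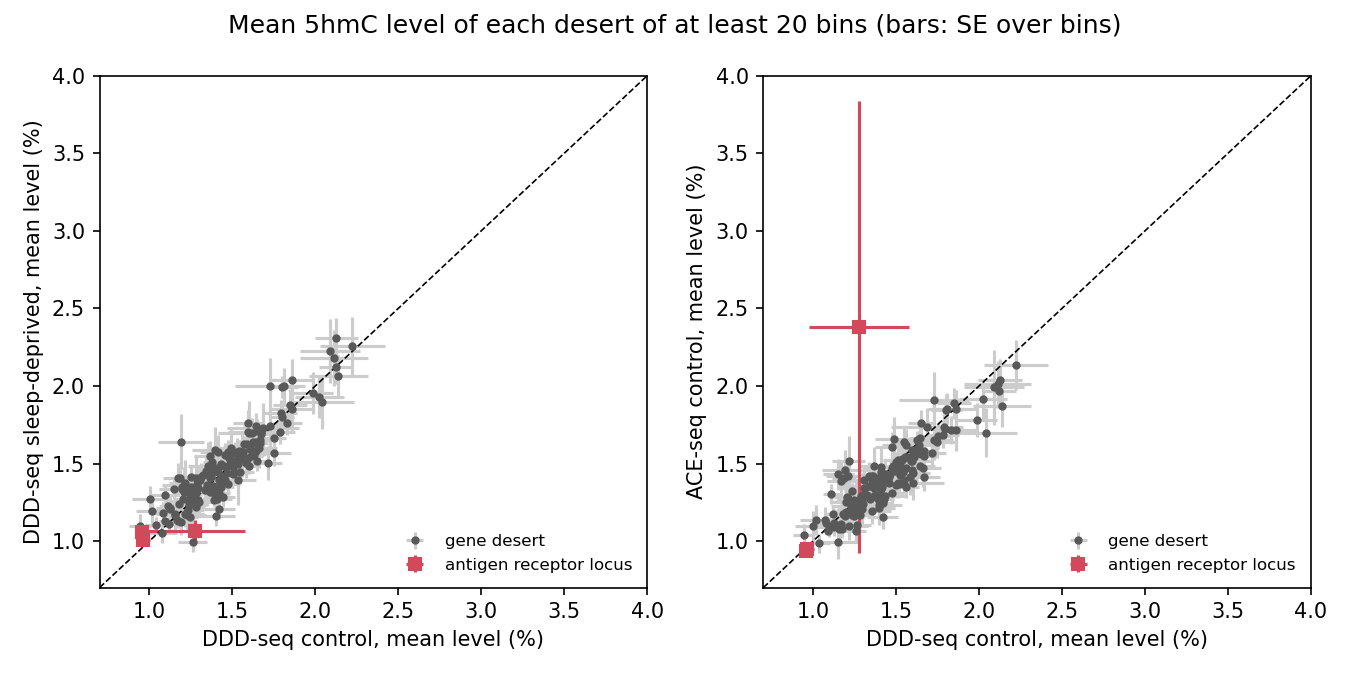
Mean 5hmC level in percent of each of the 184 deserts of at least 20 bins in the DDD-seq control (horizontal axes) against the CSD library (left) and the ACE-seq control (right), with SE over bins as bars and equality as the dashed line. Deserts spread along the line, Igh and Igk sit at its low end, and Tcra stands off it on the right with 2.38% and a long error bar.

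High single bins were rare in deserts. A level of 3% or more in all 3 libraries was reached by 162 member bins (0.814%), beside 2.75% of all autosomal bins, 0.503% of other intergenic bins and 5.27% of genic bins. The 162 bins lay in 64 deserts and formed 146 runs, of which 133 were a single bin and the longest was 3 bins. None lay in an antigen receptor locus. Of these bins, 16 (9.88%) overlapped an lncRNA gene, near the 7.94% of all member bins. The 5 deserts with the most held 47 of them. Nmbr to Cited2 and Ankrd7 to Kcnd2 held 12 each, Manea to Epha7, an ephrin receptor gene, held 9, and Tlr4 to Brinp1 held 8. Ctnna3 to Reep3 and Marcks to Rfpl4b had 6 each.

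The bin with the highest level over the 3 libraries lay in the desert between Tlr4 and Brinp1 (chr4:67470001-67480000), 623 kb from the nearest protein-coding gene. It had 15.5% in the DDD-seq control, 15.7% in the CSD library and 12.4% in the ACE-seq control. The 4 bins around it had a mean of 2.30%, 2.15% and 2.29%, with the bin just after it at 3.82%, 3.89% and 3.60%. No RefSeq gene of any kind was annotated in it. Of the 8 member bins that reached 10% in any library, it was the only one to do so in all 3, and each of the other 7 was at 0 in at least 1 library.

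A pair of further bins of that desert were among the 10 highest: chr4:67890001-67900000 with 7.96%, 5.78% and 5.99%, and chr4:67660001-67670000 with 5.15%, 5.04% and 5.41%. In the Ankrd7 to Kcnd2 desert, chr6:19570001-19580000 had 7.28%, 7.18% and 6.17%. Between Manea and Epha7, chr4:27490001-27500000 had 8.78%, 6.16% and 6.53% at 1143 kb from the nearest gene. The 10 highest bins were ranked by their lowest value over the 3 libraries. That value was 5.04% in the last of them, so a level above 5% in all 3 follows from the ranking.

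A pair of bins between Marcks and Rfpl4b, chr10:37990001-38000000 and chr10:37900001-37910000, had 8.16%, 7.55% and 5.70% and 9.91%, 8.04% and 5.26%. Between Khdrbs3 and Fam135b, chr15:70480001-70490000 had 6.33%, 8.44% and 5.07%. The other two overlapped lncRNA genes: the bin at the C230029F24Rik promoter printed above, 1651 kb from the nearest protein-coding gene, and chr10:66180001-66190000 in 1700023F02Rik, with 5.18%, 5.83% and 6.98%. In 8 of the 10 bins no gene was annotated, beside 17337 of all 19900 member bins. The count is therefore not read as a trait of high bins.

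**Figure D4:**
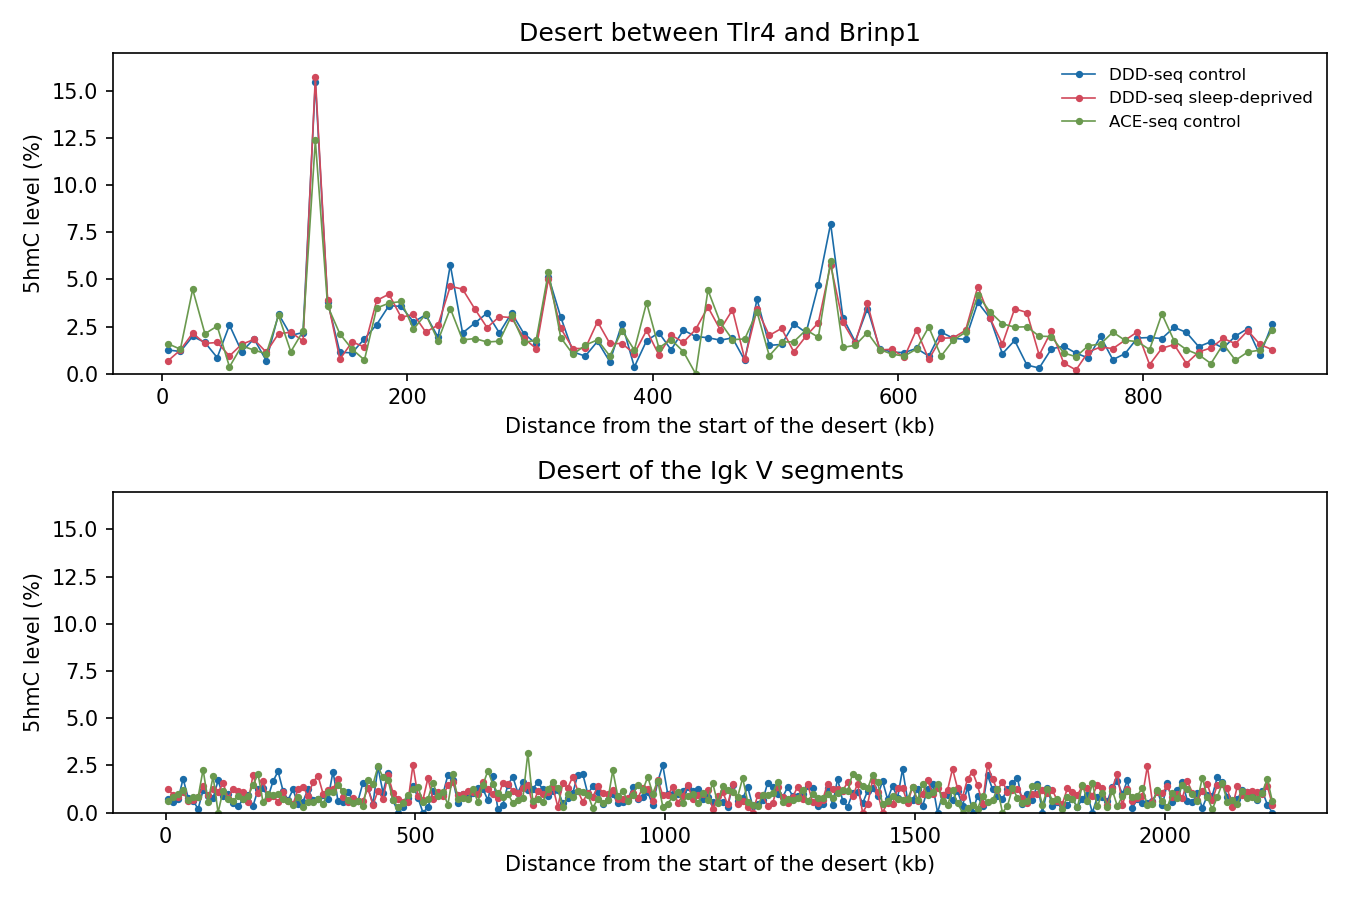
5hmC level in percent (vertical axes, both from 0) of each 10 kb bin along 2 deserts, by distance in kb from the start of the desert (horizontal axes), with 1 line per library. The upper desert, between Tlr4 and Brinp1, has a single bin at 12.4% to 15.7% in all 3 libraries, whereas no bin of the Igk desert below it exceeds 3.16%.

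Neighbouring bins of a desert were little alike. Spearman's rho between adjacent desert bins of 1 library was 0.107, 0.126 and 0.104. Between the DDD-seq control and the CSD library, rho was 0.316 over 19896 desert bins, 0.383 over other intergenic bins and 0.662 over genic bins. Over full 100 kb windows it was 0.651 in deserts, 0.714 in other intergenic windows and 0.926 in genic windows. The same series for the DDD-seq control against the ACE-seq control was 0.301, 0.343 and 0.631 for bins and 0.618, 0.677 and 0.913 for windows. The libraries thus ordered single desert bins poorly and whole deserts well. The spread of levels and the depth of bins both enter these values, and depth is unknown.

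Desert bins in lncRNA genes differed little from the rest. Their means were 1.49%, 1.54% and 1.45%, against 1.44%, 1.45% and 1.40% for bins with no annotated gene. Bins in lncRNA genes were compared with the others within the same desert in the 138 deserts that held both. They exceeded the others by 0.0807 ± 0.0399, 0.0720 ± 0.0323 and 0.0551 ± 0.0428 points (SE over deserts) and were higher in 74, 76 and 71 deserts. The medians of these differences were smaller, 0.0236, 0.0262 and 0.0228 points, and the ACE-seq mean was within 2 SE of 0. With every kind of noncoding gene counted together, V segments included, the differences within a desert were 0.0515 ± 0.0308, 0.00715 ± 0.0290 and 0.0373 ± 0.0330 points (SE over 191 deserts). Pooled over bins they were -0.0271, -0.0147 and 0.00575 points, also within 2 SE of 0, and positive without the antigen receptor loci (0.0172, 0.0276 and 0.0127).

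The deserts held 177 noncoding genes of at least 3 bins, 163 of them lncRNA genes with medians of 1.45%, 1.52% and 1.43%. An lncRNA gene was above its own desert in all 3 libraries in 55 cases and below it in all 3 in 36. The highest was 1700023F02Rik (chr10:66120609-66200491, 9 bins), with 2.96% ± 0.46, 2.95% ± 0.53 and 3.05% ± 0.59 (SE over bins) against 1.85%, 1.88% and 1.89% for its desert between Ctnna3 and Reep3. It overlaps the second, 4930407I19Rik, with 2.81%, 2.77% and 3.08%, and the 2 share bins. Gm32423, between the cadherin genes Cdh8 and Cdh11, had 2.72%, 2.40% and 2.58%. Gm20125, with 15 bins between Nmbr and Cited2, had 2.37%, 2.60% and 2.44%, and Gm42185 had 2.67%, 2.63% and 2.02%.

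At the low end, Gm30996, an lncRNA gene inside Igh, had 0.753%, 0.686% and 0.892%, and the pseudogene Gm53054 had 0.634%, 0.861% and 1.09%. Gm41317 had 0.996%, 0.971% and 0.775%, Gm39640 1.12%, 1.07% and 0.679%, and Gm13912 1.10%, 1.01% and 0.795%. Rmst, an lncRNA gene with a known part in neurogenesis, lay between Tmpo and Nedd1 and had 1.99% ± 0.17, 1.78% ± 0.14 and 1.87% ± 0.13 over 9 bins. Its desert had 1.83%, 1.76% and 1.72%.

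The 21 microRNA genes ranged from 0.394% to 5.88% over the libraries, read from the bin or bins that hold each of them. Mir6370, in the desert beside Kcnd2, lay in the highest bin of them, with 5.88%, 5.22% and 4.31%. Mir125b-2, of the miR-125 family that is abundant in brain, had 3.45%, 2.68% and 3.77%. Its desert between Usp25 and Cxadr held 18 bins with means of 2.22%, 2.60% and 2.26%, too few bins to be ranked but above the first ranked desert by the mean of the 3 libraries. Mir1952, between Btbd3 and Sptlc3, had 2.83%, 3.06% and 3.33% over 2 bins, and Mir135a-2, near Rmst, had 1.63%, 2.01% and 2.28%. These high values were those of bins 10 kb long, which are far longer than a hairpin.

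The 8 Mir344 genes (Mir344b, Mir344c, Mir344d-1, Mir344d-2, Mir344d-3, Mir344e, Mir344h-1 and Mir344h-2) lay in 6 bins of the desert between Gm51483 and Ndn (chr7:61620001-61840000), next to the imprinted Prader-Willi region. Their bins ran from 0.864% to 1.51% in the DDD-seq control, from 1.01% to 2.03% in the CSD library and from 0.394% to 1.97% in the ACE-seq control. The whole desert had 1.15%, 1.17% and 0.994%, the seventh lowest. Mir344d-1 and Mir344d-2 share a bin, as do Mir344e and Mir344h-1, so shared seeds and shared values are not independent. The lowest microRNA gene was Mir8099-2, with 0.490%, 1.01% and 0.976%.

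**Figure D5:**
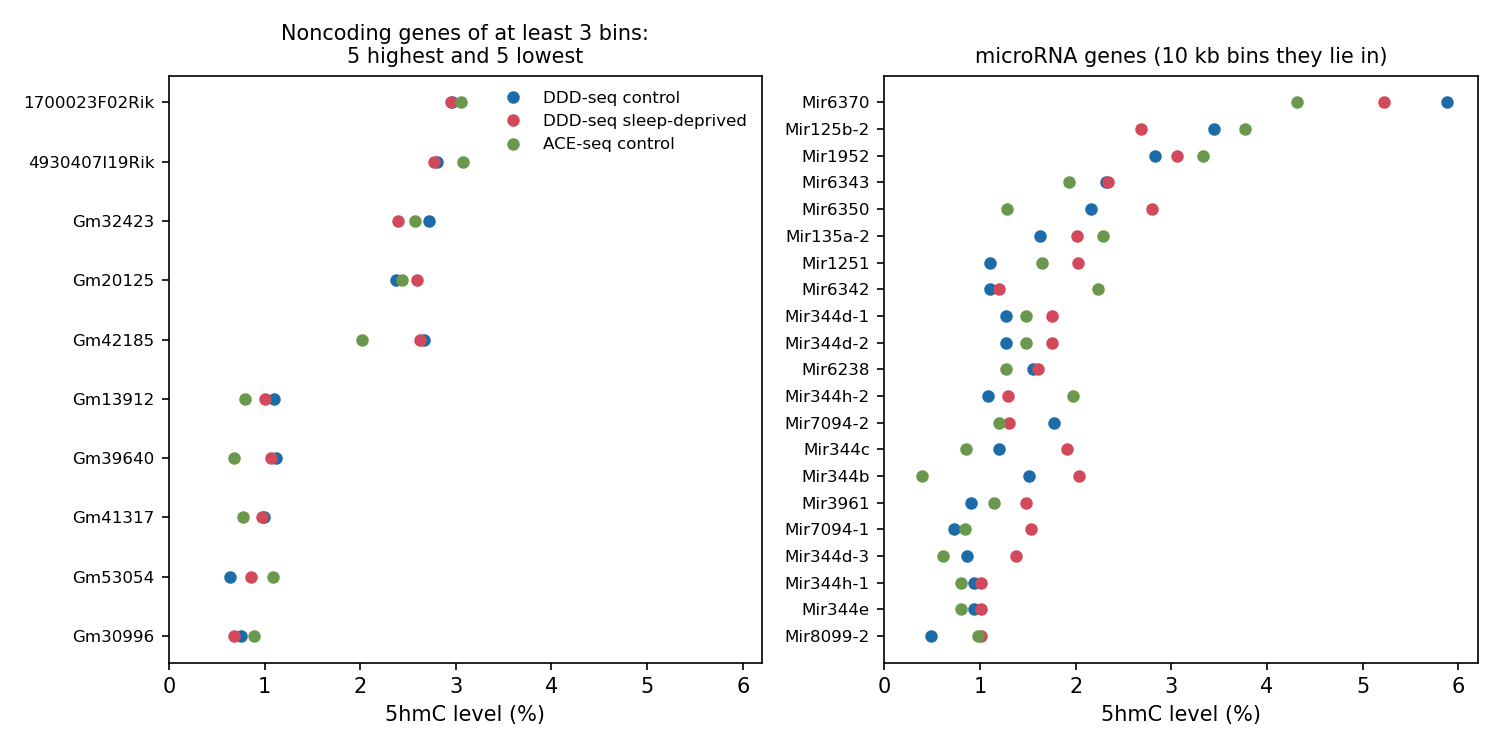
5hmC level in percent (horizontal axes) of the 5 highest and 5 lowest noncoding desert genes of at least 3 bins (left) and of the bins that hold the 21 microRNA genes (right), with 1 point per library. Mir6370 stands at 4.31% to 5.88%, and the Mir344 genes lie at 2.03% or below in every library.

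The comparison of the 2 DDD-seq libraries asks how deserts differed after chronic sleep deprivation. The CSD library lay 0.0181 ± 0.0062 points above the DDD-seq control over desert bins (SE over deserts), with 10226 bins higher and 9637 lower. The difference was 0.0102 points in other intergenic bins and -0.00363 points in genic bins. Without values of 0, of which the DDD-seq control had more, the desert difference was 0.00842 points. Desert means were higher on 13 of 19 autosomes, and among the 184 deserts of at least 20 bins 105 were higher and 79 lower. Of all autosomal bins, 120602 were higher and 118158 lower. Regions of similar length outside deserts were not counted this way.

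At 10 kb, 4628 of 19583 desert bins above 0 in both libraries were at least 1.5-fold higher after sleep deprivation (23.6%), beside 14.1% of all autosomal bins. At least 1.5-fold lower were 4047 (20.7%), beside 12.6%. In other intergenic bins the shares were 16.6% higher and 14.7% lower. Both directions in deserts thus exceeded the background, and by similar factors. In full 100 kb windows of the deserts, 30 were higher and 19 lower by this fold of 1779 (2.75%), beside 0.916% of all autosomal windows. None of the 209 deserts of at least 10 bins differed by 1.5-fold, beside 0.257% of 1 Mb windows outside deserts.

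One desert of at least 20 bins differed by more than 3 SE over its bins, that between Akr1e1 and the transcription factor gene Klf6 (chr13:5110001-5360000, 25 bins). It had 1.19% in the DDD-seq control, 1.64% in the CSD library and 1.46% in the ACE-seq control, a difference of 0.45 ± 0.12 points between the DDD-seq libraries. Outside deserts, 0.216% of 1 Mb windows of at least 20 bins were higher by this rule and 0.0432% lower. The ACE-seq control lay between the DDD-seq libraries.

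Further positive differences were 0.27 points between Ccer1 and Atp2b1, a plasma membrane calcium pump gene, 0.24 between Kctd16 and Prelid2 and 0.22 between Frg1 and Triml1. The 5 most negative were -0.27 points between BC030500 and Aadat, -0.24 between Cdh10 and Cdh12, -0.21 between Nox3 and Arid1b, -0.21 in the Tcra desert, which carries the 20% bin of the DDD-seq control, and -0.21 between Pot1a and the glutamate receptor gene Grm8. Each of these was within 3 SE.

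The ACE-seq control was compared with the DDD-seq control to set the methods side by side in deserts. This comparison and the one above share the DDD-seq control. The ACE-seq control was lower by 0.0325 ± 0.0069 points over desert bins (SE over deserts). In other intergenic bins it was lower by 0.0444 points and in genic bins by 0.0458. Its desert mean was lower on 16 of 19 autosomes, and 135 of the 184 deserts of at least 20 bins were lower. Among single bins, 10342 desert bins were lower and 9493 higher, beside 127497 and 111111 of all autosomal bins. Regions of similar length outside deserts were not counted this way, so the 135 are not read as particular to deserts. At least 1.5-fold higher were 4395 of 19463 desert bins (22.6%), beside 13.9% of all autosomal bins, and at least 1.5-fold lower 4769 (24.5%), beside 17.4%. In other intergenic bins the shares were 16.1% higher and 20.1% lower. Of 1779 desert windows of 100 kb, 23 were higher and 44 lower (3.77%), beside 1.52% of all autosomal windows.

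By desert, 1 of 209 passed 1.5-fold, beside 0.257% of 1 Mb windows outside deserts. It was Tcra, where the ACE-seq control was higher by 1.10 ± 1.51 points and 1.86-fold, and the single bin at 100% carried that value. Without the highest bin of each library the Tcra means were 0.997% and 0.923%. No desert of at least 20 bins differed by more than 3 SE, beside 0% of 1 Mb windows outside deserts higher and 2.03% lower by this rule. The next positive differences were 0.30 points between Rorb and Anxa1, 0.28 between Kif2b and Car10, 0.27 between Akr1e1 and Klf6 and 0.22 between Frg1 and Triml1. The 4 most negative were -0.34 points between Mmut and Ptchd4, -0.27 between Nectin3 and Gm52257, -0.27 between Pot1a and Grm8 and -0.25 between Kcnj3 and Nr4a2. Akr1e1 to Klf6 and Frg1 to Triml1 were higher, and Pot1a to Grm8 lower, in both libraries set against the DDD-seq control; that control enters both differences.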

How the data were processed

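The authors deposited 1 table with a fraction per 10 kb bin and library, used here times 100 as percent. FastQC, Trimmomatic, Bismark and the human build hg19 are named in the submitters' processing notes. The bins cover mouse chromosomes, and the last bin ended 1.33 to 211.9 kb after the last RefSeq gene of GRCm38.p6 on each, so bins were treated as GRCm38. The averaging, the cytosine contexts and the depth behind a value are not given in the sources used here. Per the file headers, reads were trimmed, aligned, sorted and merged. The word "all" in the DDD-seq column names may mean pooled runs.

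Distances ran from bin to the nearest protein-coding gene. Desert means weight bins equally, with a cluster-robust SE over deserts (1 Mb windows for other classes). Unlabelled SEs of a single desert, locus or gene are over bins. Those of a difference between classes combine the cluster-robust SEs of both classes. Named were the 5 longest deserts, the 10 highest and 10 lowest, and the 5 most changed each way (at least 20 bins), the 10 highest bins by their lowest library, and the 5 highest and 5 lowest noncoding genes of at least 3 bins. A few deserts that this rule names are not reported here. Mir and Rmst genes, other named lists and the antigen receptor loci were chosen after values were seen. The members and lists were chosen with earlier results of these data known. Alternatives are in the closing section. The distance and SE code was tested on simulated data. Software was matplotlib 3.10.9, scipy 1.17.1, pandas 2.3.3 and numpy 2.4.6 under Python 3.11.15.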

Additional observations from a re-analysis of the deposited data

How the results depend on the processing

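The 19 summary values (mean levels, differences and counts of deserts past 1.5-fold) were recomputed under 9 alternatives, and 145 of these values stayed within 2 SE of the main one or, for counts, within 1.5 times, while 22 moved and 1 reversed a difference larger than its error. A further 15 changes of sign, all in the core minus edge and noncoding differences, were of main values smaller than 2 SE, so these differences have no settled direction. The last alternative, without the antigen receptor loci, was chosen after seeing the data. With deserts at 250 kb or more, 2 deserts passed 1.5-fold in the sleep-deprived and 0 in the ACE-seq comparison. At 1000 kb or more (6495 bins), the core minus edge difference was -0.08613, -0.04948 and -0.03826 points, and bins of noncoding genes minus other bins -0.1044 (sleep-deprived) and -0.09788 (ACE-seq). Taken at 500 kb from RefSeq genes of any kind, 221 bins were left, with no noncoding comparison possible. There the ACE-seq mean was 1.325%, its difference from other intergenic bins -0.01758 points (sign changed), from genic bins -0.39 and from the DDD-seq control -0.0913, and its fold count 0. With medians for means, levels were 1.319%, 1.333% and 1.292%, the differences from genic bins -0.1691, -0.1457 and -0.1593, and 1 (sleep-deprived) and 0 (ACE-seq) deserts passed. With each desert weighted equally, the difference of the DDD-seq libraries was 0.03995 points. The ACE-seq fold count was 0 without bins of 20% or more and 0 without the antigen receptor loci. With each autosome left out in turn, 360 values stayed (6 of the same kinds changed sign) and 1 moved: the ACE-seq fold count was 0 without chromosome 14 (range 0 to 1). Causes were not tested, except that fewer or other bins enter by construction.

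No paired analysis was possible because each group has 1 library. Read depth is unknown, so the noise of single bins, and bins at 0 or above 10%, cannot be graded, and differences between libraries cannot be assigned to conditions or methods.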

Other observations

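The sex chromosomes are outside the deserts described above. On chromosome X, 1178 bins lay at least 500 kb from a protein-coding gene, with median levels of 1.10% in the DDD-seq control, 1.16% in the CSD library and 1.13% in the ACE-seq control. The medians were 1.10%, 1.13% and 1.09% in its other intergenic bins and 1.56%, 1.55% and 1.52% in its genic bins. A level of 0 was listed for 14.7%, 7.39% and 13.6% of the 1178 bins. On chromosome Y, 376 such bins had medians of 0.522%, 0.763% and 0.613%, with 43.6%, 37.5% and 43.9% at 0.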
